A study of Mus musculus with 2 samples.

Results

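The expression of 10 transcription factors that direct endothelial identity and vessel type, Erg, Fli1, Sox7, Sox17, Sox18, Tal1, Klf2, Klf4, Mecom and Nr2f2, was followed through the cells of PyMT-M and PyMT-N mouse mammary tumors. The genes were taken by name and are 10 of the 33696 genes listed with the counts. PyMT-M and PyMT-N are sublines of the MMTV-PyMT model, in which the mouse mammary tumor virus promoter drives the polyoma middle T antigen in mammary epithelium, and were paired in the study as a High-MAC (macrophage-rich) and a Low-MAC tumor. Cells of each line had been transplanted into the mammary fat pad of female C57BL/6 mice aged 6 to 8 weeks, with no other treatment named. After depletion of CD45+ and Ter119+ cells, CD31 and CD144 beads and a CD31+ CD144+ sort, the cells of 3 tumors per line were pooled into 1 10x Genomics 3′ library. The labels name collagenase I for the digestion and the study's methods collagenase II with dispase II. With 1 library per line, line and library cannot be told apart, no difference was tested, and every interval given below, unlike a floor of 3 counts where one is named, is an exact 95% interval for counting error only.

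As background, ETS factors such as Erg and Fli1 hold cells in the endothelial state by binding enhancers of junction and receptor genes, and SoxF factors (Sox7, Sox17 and Sox18) act with them in vessel formation, with Sox17 tied to arteries and Sox18 to the first steps of lymphatic specification. Tal1 and Mecom work in blood-forming and endothelial cells, Klf2 and Klf4 are raised by laminar blood flow, and Nr2f2, also known as COUP-TFII, opposes Notch signaling in veins and partners with Prox1 in lymphatic vessels.

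Cells with at least 200 detected genes and at most 10% mitochondrial UMIs (unique molecular identifiers, each 1 captured transcript) were kept, 6719 of 7821 barcodes in PyMT-M and 5607 of 6974 in PyMT-N, and 20 barcodes were found in both libraries. Without the cells of those barcodes, each member's ratio between the lines in blood endothelial cells stayed inside its counting interval. Although all cells had passed the endothelial sort, 4902 PyMT-M and 3306 PyMT-N cells met the tumor rule (at least 3 UMIs of Krt8, Krt18 and Rhox5, none of Pecam1 and Flt1) and 588 and 1065 the blood endothelial rule (at least 5 UMIs of Pecam1, Flt1, Emcn and Kdr, at most 1 of Krt8, Krt18 and Rhox5, none of Prox1). A further 20 and 207 cells were lymphatic (at least 3 UMIs of Prox1, Mmrn1 and Reln), 58 and 63 were fibroblasts (Col3a1 of at least 3000 CPM, the usual scaling of a gene's UMIs to a common total), and 232 and 115 leukocytes were kept for comparison. Blood endothelial cells were shallower in PyMT-M, with a median of 5206.5 UMIs against 12696 for PyMT-N, while the medians of tumor-class cells were 23715.5 and 20757.5. Detection of the markers in the class rules was fixed by those rules. Outside them, blood endothelial cells held 973 (PyMT-M) and 1158 CPM (PyMT-N) of Cdh5, and lymphatic cells 1449 and 456 CPM of Lyve1. In tumor-class cells, Epcam stood at 3.52 and 0.410 CPM and Krt19 at 0 and 0.199 CPM, and Krt18 at 0.0662 CPM in PyMT-M against 1003 in PyMT-N, so these cells are called tumor-class cells by their rule. Markers of other cells in the blood endothelial class differed between libraries. All 6 leukocyte markers were detected and summed to 46.4 CPM in PyMT-M but 498 CPM in PyMT-N (C1qa 0.303 and 113), and all 5 mural markers to 262 and 125 (Acta2 165 and 1.74, Kcnj8 9.40 and 117).

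Erg, Fli1, Sox17, Sox18, Tal1 and Mecom stood below 1 CPM in tumor-class cells of both libraries, while Sox7, Klf2, Klf4 and Nr2f2 were shared with those cells in at least 1 library. Of the members with at least 200 UMIs over the classes compared, 7 of 9 in PyMT-M and 8 of 10 in PyMT-N were 2-fold or more higher in blood endothelial than in tumor-class cells, compared with 19.2% of 11315 genes in PyMT-M and 17.4% of 11764 genes in PyMT-N. The member with too few UMIs to be counted in PyMT-M was Tal1, with 84 UMIs in blood endothelial and 4 in tumor-class cells. The median log2 ratio of the members was 10.55 for PyMT-M and 8.95 for PyMT-N, where it was -0.01 and 0.06 over all genes compared. Because the classes were drawn on endothelial and epithelial genes, these ratios describe how well each member follows that division. Free RNA can leave UMIs in cells that do not express a gene, so shares of blood endothelial cells are set beside those of tumor-class cells below. The tumor rule leaves out cells with a UMI of Pecam1 or Flt1. Tumor-class shares can therefore be too low as a measure of free endothelial RNA.

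Among the ETS factors, Erg (ENSMUSG00000040732) reached 132 CPM (120.1 to 145) in PyMT-M and 189 CPM (182 to 196) in PyMT-N blood endothelial cells. In lymphatic cells it stood at 101 CPM (9 UMIs) and 105 CPM (93.8 to 118), whose intervals overlap each other. Tumor-class cells held 0.0579 and 0.265 CPM, with a UMI in 0.143% and 0.575% of cells against 48.5% and 80.9% of blood endothelial cells, and the leukocyte class held 0 UMIs (PyMT-M) and 1 UMI (PyMT-N). Erg therefore followed the order blood endothelial, lymphatic, all others in PyMT-N, while in PyMT-M the lymphatic interval covered the blood endothelial value. Fli1 (ENSMUSG00000016087), the second ETS member, was at 485 CPM (461 to 509) and 397 CPM (386 to 407) in blood endothelial cells and at 483 CPM (349.6 to 651) and 284 CPM (264 to 304) in lymphatic cells. Fli1 also works in blood cells, and unlike Erg it was present in the leukocyte class at 135 CPM (111 to 163) and 191 CPM (163 to 222). In tumor-class cells it stood at 0.323 and 0.860 CPM.

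Mecom (ENSMUSG00000027684), a zinc-finger factor of stem and endothelial cells, had the highest ratio of blood endothelial over tumor-class cells among the 10 members. It reached 1005 CPM (971 to 1039.9) in PyMT-M and 851 CPM (836 to 866) in PyMT-N blood endothelial cells, and 0.182 and 0.966 CPM in tumor-class cells. The log2 ratio of blood endothelial over tumor-class cells was 12.43 (11.83 to 13.11) in PyMT-M, rank 5 of all genes compared, and 9.78 (9.45 to 10.13) in PyMT-N, rank 53. In PyMT-N lymphatic cells 24 UMIs were read, 15 of them in 1 cell, and 4 of 207 cells had any. In PyMT-M none of the 20 lymphatic cells had a UMI, where a floor of 3 counts would be a share of 15.0% of cells with a UMI and the exact interval ends at 16.8%. No UMI was found in the leukocyte class of either library. Tal1 (ENSMUSG00000028717), a basic helix-loop-helix factor shared with blood progenitors, had few reads, with 25.5 CPM (20.3 to 31.5) and 28.1 CPM (25.5 to 30.9) in blood endothelial cells and 56.4 CPM (48.0 to 65.9) in PyMT-N lymphatic cells. Tumor-class cells held 4 UMIs of Tal1 in each library, or 0.0331 and 0.0529 CPM.

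The SoxF genes parted from each other outside blood vessels. Sox18 (ENSMUSG00000046470) was at 129.5 CPM (118 to 142) in PyMT-M and 213 CPM (206 to 221) in PyMT-N blood endothelial cells, and at 78.6 CPM (7 UMIs) and 135 CPM (122 to 149) in lymphatic cells. Sox17 (ENSMUSG00000025902), an arterial factor, was at 78.5 CPM (69.3 to 88.7) and 85.8 CPM (81.1 to 90.6) in blood endothelial cells. In lymphatic cells it was close to nil, with 0 UMIs in PyMT-M and 1 UMI in 207 PyMT-N cells. Tumor-class cells held 0.0745 and 0.344 CPM of Sox18 and 0.0496 and 0.132 CPM of Sox17.

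Sox7 (ENSMUSG00000063060) was at 88.9 CPM (79.0 to 99.6) in PyMT-M and 142 CPM (136 to 149) in PyMT-N blood endothelial cells, and it was the only SoxF gene with more than a trace in tumor-class cells. There it reached 9.11 CPM (8.58 to 9.66) in PyMT-M against 0.979 CPM (0.769 to 1.23) in PyMT-N. A UMI was read in 18.7% of PyMT-M tumor-class cells and 1.88% of PyMT-N ones at their own depth, and in 2.69% and 0.182% with every cell thinned to 3000 UMIs. In PyMT-M blood endothelial cells 293 UMIs of Sox7 stood beside 427 of Sox18, but in tumor-class cells of the same library 1101 stood beside 9. In PyMT-M tumor-class cells with a UMI of Cdh5 it was at 9.44 CPM over 304 cells, and without one, at 9.08 CPM over 4598 cells, and their intervals overlap. The part of these cells in the difference was not tested. Of the tumor-class cells, 3808 PyMT-M and 162 PyMT-N cells were in the cycling set. In the PyMT-M cells outside it Sox7 was at 8.29 CPM, and in those inside it at 9.29 CPM.

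**Figure D1:**
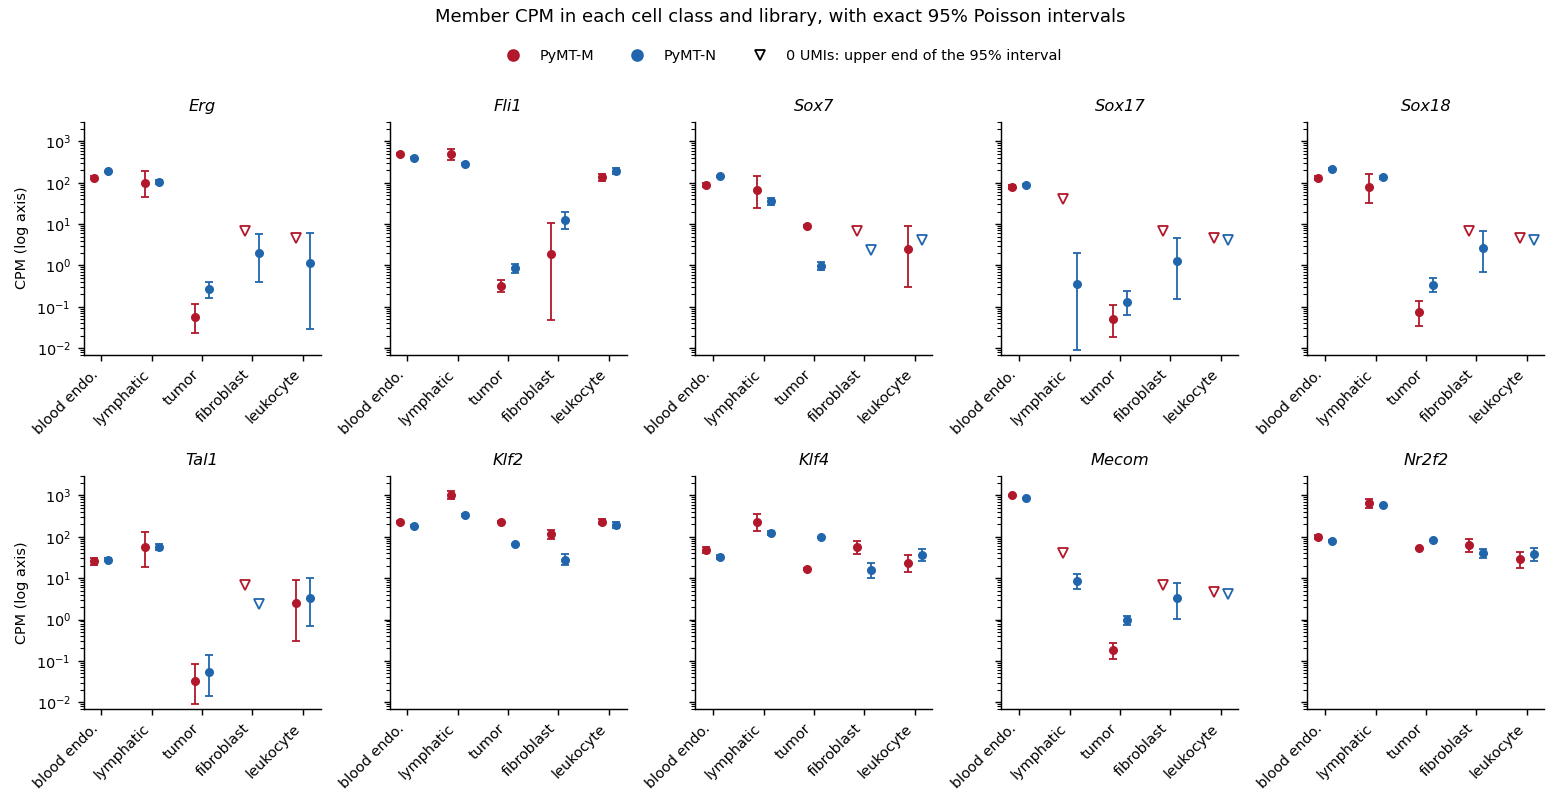
CPM of each member (log axis) in 5 cell classes, PyMT-M in red and PyMT-N in blue, with exact 95% Poisson intervals. Open triangles stand for 0 UMIs and are drawn at the upper end of the interval. Erg, Sox17, Sox18, Tal1 and Mecom sat below 1 CPM in tumor-class cells of both libraries, while Klf2, Klf4 and Nr2f2 lay above 15 CPM in every class.

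Nr2f2 (ENSMUSG00000030551) was highest in lymphatic cells and had UMIs in every class. It was at 652 CPM (495 to 842) in PyMT-M and 572 CPM (544 to 600.2) in PyMT-N lymphatic cells, and at 100.1 CPM (89.6 to 111) and 78.2 CPM (73.8 to 82.8) in blood endothelial cells. Tumor-class cells held 52.4 CPM (51.1 to 53.7) and 81.6 CPM (79.6 to 83.7), the fibroblast class 63.3 and 40.5 CPM and the leukocyte class 28.6 and 38.2 CPM. The leukocyte values rest on 23 UMIs in 8 of 232 PyMT-M cells, 11 of them in 1 cell. In PyMT-N they rest on 34 UMIs in 8 of 115 cells, 13 of them in 1 cell. Leukocytes also held 267 CPM of Rhox5 in PyMT-M and 322 CPM of Krt18 in PyMT-N, and PyMT-M fibroblasts 240 CPM of Rhox5. The part of free RNA or mixed cells in these levels was not tested. In PyMT-N the blood endothelial and tumor-class levels did not differ beyond counting error, with a log2 ratio of -0.06 (-0.15 to 0.03), and in PyMT-M the ratio was 0.93 (0.77 to 1.09).

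Klf2 and Klf4, the flow-responsive factors, had UMIs in every class, as did Nr2f2. Klf2 (ENSMUSG00000055148) was at 227 CPM (211 to 244) in PyMT-M and 182 CPM (175 to 189) in PyMT-N blood endothelial cells, and higher in lymphatic cells, at 1045 CPM (843 to 1280.1) and 341 CPM (319.9 to 363). PyMT-M tumor-class cells, at 234 CPM (231 to 236), matched the blood endothelial cells of their library, with a log2 ratio of blood endothelial over tumor-class of -0.04 (-0.15 to 0.06). In PyMT-N the ratio was 1.44 (1.37 to 1.51), since tumor-class cells held 67.0 CPM (65.2 to 68.9). With mitochondrial, ribosomal-protein and hemoglobin genes left out of the totals, the PyMT-M ratio was -0.29. Leukocytes carried 233 and 194 CPM. Klf4 (ENSMUSG00000003032) was at 47.6 CPM (40.5 to 55.7) and 32.4 CPM (29.6 to 35.4) in blood endothelial cells and at 225 CPM (137 to 347) and 123 CPM (111 to 137) in lymphatic cells. In tumor-class cells it ran the other way from Klf2, with 16.7 CPM (15.9 to 17.4) in PyMT-M and 97.9 CPM (95.6 to 100.1) in PyMT-N. Thus Klf4 was 2.86-fold higher in blood endothelial than in tumor-class cells of PyMT-M and 3.02-fold lower in those of PyMT-N.

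The sequences just upstream of Klf2 and Klf4 are shown because these genes formed the pair read together beyond the product of their shares in blood endothelial cells of both libraries at equal depth, and because Klf2 is known to be switched on by MEF2 factors under flow. Promoter windows of RefSeq on build GRCm38.p6, which is not the mm39 build named for the counts, were matched for Erg, Tal1, Klf2, Klf4, Mecom and Nr2f2, 6 of the 10 members. The Klf2 window is chr8:72318812-72319061 on the plus strand and the Klf4 window chr4:55532476-55532725 on the minus strand, each the 250 bases before the annotated start, 5′ to 3′, and capitals mark a match to the MEF2 motif on either strand.
Klf2: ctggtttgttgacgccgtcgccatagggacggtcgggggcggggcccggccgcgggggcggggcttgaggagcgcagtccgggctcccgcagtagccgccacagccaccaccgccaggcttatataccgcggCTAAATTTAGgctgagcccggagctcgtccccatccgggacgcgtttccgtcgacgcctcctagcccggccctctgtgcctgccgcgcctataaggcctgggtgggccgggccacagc
Klf4: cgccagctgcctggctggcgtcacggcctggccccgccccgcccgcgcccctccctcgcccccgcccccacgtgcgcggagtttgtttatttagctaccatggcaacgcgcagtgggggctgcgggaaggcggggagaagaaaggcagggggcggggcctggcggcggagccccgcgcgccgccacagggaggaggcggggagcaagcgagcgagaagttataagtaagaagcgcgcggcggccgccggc
The Klf2 window held 1 MEF2 match, 118 bases before the start, and the Klf4 window none. Among the other matched members, 1 of the 3 Erg windows held a match, 16 bases before its start. Of 32851 windows of the same length, 2.92% hold a match. The Klf2 and Klf4 windows were rich in CpG dinucleotides, with 29 in Klf2 and 32 in Klf4 against a median of 6 over all windows. No binding was measured in these data.

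Between the lines, no member differed 2-fold in blood endothelial cells. Of 8544 genes with at least 200 UMIs, 2.55% were 2-fold or more higher and 4.18% 2-fold or more lower in PyMT-M than in PyMT-N, and 0 of the 10 members were in either group, under any of the alternatives tried. The members' median for PyMT-M relative to PyMT-N, on the log2 scale, was 0.06, and that of all genes compared -0.01. The counting interval lay above 0 for 5 members, below 0 for 3 and across 0 for 2, and it leaves out differences between tumors. The share of all genes with an interval off 0 was not counted, so these counts are not read as a trait of the members. Erg was lower in PyMT-M, with a log2 ratio of -0.51 (-0.66 to -0.37), and Fli1 higher, with 0.29 (0.21 to 0.37). Of the SoxF genes, Sox18 at -0.72 (-0.87 to -0.57) and Sox7 at -0.68 (-0.86 to -0.50) were the lowest members, while Sox17 at -0.13 (-0.33 to 0.07) did not differ beyond counting error, nor did Tal1 at -0.14 (-0.50 to 0.20). The other 4 were higher in PyMT-M, with 0.56 (0.29 to 0.82) for Klf4, 0.36 (0.18 to 0.53) for Nr2f2, 0.32 (0.20 to 0.44) for Klf2 and 0.24 (0.18 to 0.30) for Mecom.

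Some of these values differed with the cells that were counted. With cells that held 2 or more UMIs of leukocyte, fibroblast, mural or platelet markers left out, 551 PyMT-M and 647 PyMT-N cells remained, the leukocyte markers summed to 1.97 and 1.73 CPM, and Nr2f2 no longer differed beyond counting error, at -0.00045 (-0.20 to 0.20). A minimum of 2 UMIs depends on depth, the filter removed more of the PyMT-N cells, and the part of depth in these values was not tested. The ratio was 0.19 (0.06 to 0.32) for Klf2, 0.36 (0.06 to 0.66) for Klf4 and 0.15 (0.09 to 0.21) for Mecom in these cells. With blood endothelial and lymphatic cells pooled, a setting added after the data were seen, Nr2f2 was lower in PyMT-M at -0.46 (-0.62 to -0.30), and Klf4 was at 0.16 (-0.08 to 0.40). Erg moved most under thinning to 3000 UMIs, to -0.80 (-1.06 to -0.55), and Mecom was nearest to 0 in cells near the median gene number of their library, at 0.09 (0.02 to 0.16). Sox17 was at -0.38 (-0.63 to -0.14) in those cells, with the interval below 0. This filter on gene number kept 309 of 588 PyMT-M and 1031 of 1065 PyMT-N blood endothelial cells.

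**Figure D2:**
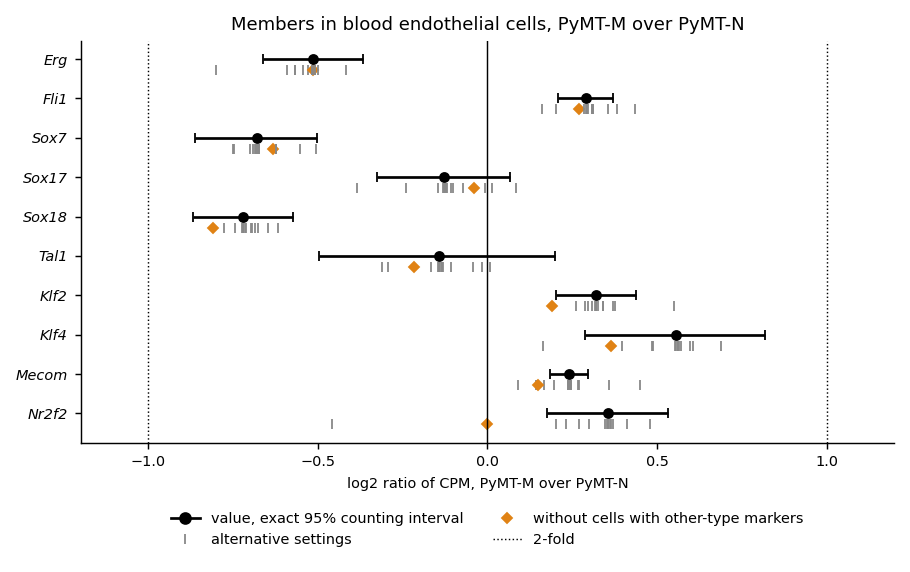
Log2 ratio of CPM in blood endothelial cells, PyMT-M over PyMT-N, for each member. Black points are the values with exact 95% counting intervals, grey ticks the same ratio under other settings on blood endothelial cells or with lymphatic cells added, and orange diamonds the value without cells that hold markers of other types. All points lie within 2-fold (dotted lines), and the diamond of Nr2f2 lies at 0.

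Genes known to stand downstream of these factors were compared in the same way, as a description, against the same 2.55% higher and 4.18% lower over all genes. Of 7 genes listed as raised by KLF factors, all lay on the side of PyMT-M and 3 were 2-fold or more higher. They were the chemokine gene Cxcl12 at 2.75 (2.56 to 2.94), the thrombomodulin gene Thbd at 1.55 (1.30 to 1.80) and the adrenomedullin gene Adm at 1.05 (0.91 to 1.20). Nos3, the endothelial nitric oxide synthase, was at 0.05 (-0.11 to 0.21). Of 6 genes listed as lowered by KLF factors, 5 had enough UMIs, all 5 were positive and 4 were past 2-fold. These were the chemokine gene Ccl2 at 3.44 (3.17 to 3.71), the vasoconstrictor gene Edn1 at 1.99 (1.70 to 2.28), the adhesion gene Vcam1 at 1.65 (1.40 to 1.90) and Angpt2, a Tie2 ligand, at 1.31 (1.19 to 1.43). Both lists thus lay on the PyMT-M side, whichever direction of KLF action they were listed under. That direction was not checked for any listed gene, Adm among them. Without cells that held markers of other types, Cxcl12 was at 2.32 and Ccl2 at 3.74.

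Of 12 genes with known ETS control, 0 were 2-fold higher and 1 was 2-fold lower, Vwf, the von Willebrand factor gene, at -1.47 (-1.58 to -1.36). The TGF-beta co-receptor gene Eng was at 0.85 (0.79 to 0.91) and the junction gene Cldn5 at -0.48 (-0.55 to -0.41). Of 14 arterial and Notch genes, 13 had enough UMIs. In all, 8 of them were negative, and counting intervals lay below 0 for 7 and above 0 for 4, with a median of -0.28. The lowest were Unc5b, the 1 past 2-fold, at -1.17 (-1.37 to -0.97), Efnb2, an arterial ephrin, at -0.77 (-0.93 to -0.61) and Cxcr4 at -0.54 (-0.74 to -0.34), while Sema3g at 0.67 (0.30 to 1.02) and the gap junction genes Gja4 at 0.63 (0.42 to 0.83) and Gja5 at 0.54 (0.07 to 0.99) were on the positive side. Of 8 venous genes, the leukocyte adhesion gene Selp at 1.47 (1.27 to 1.67) and the chemokine receptor gene Ackr1 at 1.47 (1.20 to 1.74) were 2-fold higher and Vwf lower. In this venous list 3 genes were positive and 5 negative, with intervals above 0 for 3 and below 0 for 3, and a median of -0.08. Of 7 lymphatic genes 2 had enough UMIs, Ccl21a at -3.14 (-3.88 to -2.49) and Flt4 at -1.11 (-1.36 to -0.87). In the lymphatic class itself Ccl21a was at 1416 CPM in PyMT-M and 11606 CPM in PyMT-N. The part of free RNA or of missed lymphatic cells in these ratios was not tested. Among 43 other endothelial transcription factors 32 had enough UMIs, 1 was 2-fold higher, the homeobox gene Meox2 at 2.02 (1.84 to 2.19), and 3 were 2-fold lower, among them Maf at -3.02 (-4.09 to -2.12) and Sox4 at -1.20 (-1.36 to -1.05). Across this list 22 of them were negative, and counting intervals lay below 0 for 19 and above 0 for 7, with a median of -0.27. For this list and the arterial and Notch list, the share of all genes with an interval off 0 was not counted. Maf is also a macrophage gene, and without cells that held markers of other types it was at -1.15, with an interval of -2.55 to 0.02 that holds 0. Meox2 was at 1.53 (1.34 to 1.71) with those cells left out, below its interval over all blood endothelial cells but still past 2-fold. Most other list genes were not recomputed in this way, and the part of those cells in their ratios was not tested. Of 14 immediate early genes, which dissociation is known to raise, 9 were positive and 1 was past 2-fold, Fosb at 1.06 (0.87 to 1.25).

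Lymphatic cells kept some of the members and lacked others. In PyMT-N, the library with 207 lymphatic cells, 3 of the 10 members were 2-fold or more higher and 3 2-fold or more lower than in blood endothelial cells, beside 6.14% higher and 8.66% lower over all genes compared. Nr2f2 was higher by a log2 ratio of 2.87 (2.76 to 2.98), Klf4 by 1.93 (1.72 to 2.13) and Tal1 by 1.01 (0.73 to 1.27). The 3 lower ones were Sox17 at -7.93 (-13.23 to -5.45), which rests on 1 lymphatic UMI, Mecom at -6.65 (-7.29 to -6.08) and Sox7, at 35.6 against 142 CPM. The remaining members lay within 2-fold, with Klf2 at 0.91 (0.80 to 1.01), Fli1 at -0.48 (-0.59 to -0.38), Sox18 at -0.66 (-0.82 to -0.51) and Erg at -0.84 (-1.02 to -0.67). Of the SoxF genes, Sox18 was thus held in lymphatic cells, Sox7 was lower and Sox17 nearly absent. In PyMT-M, with 20 lymphatic cells, Nr2f2 was at 2.70 (2.27 to 3.11) and Klf2 at 2.20 (1.88 to 2.52). Measured against a floor of 3 UMIs over the class, which is a convention and not a bound, Mecom was 29.8-fold lower there. The exact intervals of the log2 ratios ended at -4.60 for Mecom and -0.91 for Sox17. Klf2 in these cells rests on 93 UMIs in 11 cells. The 14 immediate early genes summed to 3955 CPM in PyMT-M lymphatic and 2299 CPM in PyMT-M blood endothelial cells. In PyMT-N these sums were 1877 and 2020 CPM. The part of dissociation in the lymphatic Klf2 and Klf4 levels was not tested.

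In PyMT-N lymphatic cells, 9 of the 12 ETS-controlled genes were 2-fold or more lower than in blood endothelial cells, beside 8.66% of all genes compared. Among them were Vwf at -8.16 (-9.60 to -7.03) and Clec14a at -5.14 (-6.76 to -3.91), while Cldn5 was at 1.22 (1.17 to 1.26). The list shares genes such as Vwf, Cdh5 and Esam with the markers of blood endothelial cells. Erg and Fli1 themselves lay within 2-fold, and ETS activity was not measured. Among the other transcription factors with at least 200 UMIs the highest were Tbx1 at 6.54 (6.18 to 6.92) and Maf at 4.97 (4.81 to 5.14), and the Notch effector gene Hey1 was the lowest at -4.76 (-6.39 to -3.53).

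In tumor-class cells the libraries differed far more widely than in blood endothelial cells. Of all genes compared, 19.7% were 2-fold or more higher and 22.3% 2-fold or more lower in PyMT-M, and 4 of the 10 members had enough UMIs to be read. Sox7 was 9.30-fold higher, with a log2 ratio of 3.22 (2.88 to 3.58), and Klf2 3.49-fold higher, with 1.80 (1.76 to 1.85). Klf4 was 5.88-fold lower, with -2.55 (-2.63 to -2.48), and Nr2f2 lay within 2-fold at -0.64 (-0.69 to -0.59). In PyMT-M, tumor-class cells with a UMI of Cdh5 held 378 CPM of Klf2 and those without 223.

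Within blood endothelial cells, the members differed between sets of cells drawn by genes of vessel state. A cell joined a set on its UMIs of the set's genes, at least 2 of Gja4, Gja5, Sema3g, Bmx and Fbln5 for arterial, 3 of Esm1, Apln, Kcne3 and Pgf for tip, 3 of Ackr1, Selp, Sele and Vcam1 for venous, 5 of Gpihbp1, Cd300lg and Car4 for capillary, 5 of Cxcl9, Cxcl10, Rsad2 and Ifit1 for interferon and 3 of Mki67, Top2a, Cenpf and Birc5 for cycling. Sets overlapped, with 57.0% of PyMT-M and 72.0% of PyMT-N cells in more than 1, and most held deeper cells than the rest. Cycling cells, 97 and 119 of them, had a median of 8181 and 16985 UMIs against 4527 and 12118 in the others.

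Relative to their larger UMI totals per cell, cycling cells held less Sox7, Sox17, Sox18, Mecom and Fli1. Levels per cell were not compared. Sox7 was at 36.8 CPM against 107 in the other blood endothelial cells of PyMT-M and 63.6 CPM against 157 in PyMT-N, log2 ratios of -1.54 (-2.12 to -0.996) in PyMT-M and -1.30 (-1.55 to -1.06) in PyMT-N. For Sox17 the ratio was -1.56 (-2.19 to -0.98) in PyMT-M and -1.14 (-1.45 to -0.84) in PyMT-N, and for Mecom -0.64 (-0.77 to -0.52) in PyMT-M and -0.94 (-1.03 to -0.85) in PyMT-N. Sox18 was at -0.53 (-0.90 to -0.18) in PyMT-M and -0.76 (-0.93 to -0.59) in PyMT-N. Fli1 was at -0.20 (-0.37 to -0.03) in PyMT-M and -0.18 (-0.29 to -0.07) in PyMT-N. Venous cells held more Nr2f2, with 167 CPM against 88.3 in PyMT-M and 191 CPM against 65.4 in PyMT-N, or 0.92 (0.54 to 1.29) in PyMT-M and 1.55 (1.35 to 1.74) in PyMT-N on the log2 scale. Klf4 was also higher there, at 0.66 (0.07 to 1.22) in PyMT-M and 1.34 (1.01 to 1.65) in PyMT-N. Arterial cells held more Sox17, at 135 CPM against 65.9 in PyMT-M and 109 CPM against 71.5 in PyMT-N, log2 ratios of 1.03 (0.63 to 1.42) in PyMT-M and 0.61 (0.45 to 0.77) in PyMT-N. In PyMT-N, Sox17 was also higher in the capillary set, at 0.82 (0.60 to 1.06), and the tip set, at 0.45 (0.28 to 0.63). In PyMT-M these 2 ratios were -0.16 (-0.53 to 0.23) and -0.55 (-0.92 to -0.19). Klf4 was higher in arterial cells too, at 1.04 (0.53 to 1.54) in PyMT-M and 0.39 (0.13 to 0.66) in PyMT-N. So was Sox18, at 0.52 (0.19 to 0.85) in PyMT-M and 0.28 (0.18 to 0.39) in PyMT-N. In capillary cells Sox18 was higher, at 0.66 (0.33 to 1.002) in PyMT-M and 0.91 (0.77 to 1.06) in PyMT-N, and Klf4 lower, at -0.94 (-1.41 to -0.47) in PyMT-M and -1.25 (-1.52 to -0.98) in PyMT-N. Nr2f2 was also lower there, at -1.08 (-1.40 to -0.76) in PyMT-M and -0.81 (-0.98 to -0.63) in PyMT-N. Tip cells held less Fli1, at -0.64 (-0.78 to -0.49) in PyMT-M and -0.30 (-0.38 to -0.23) in PyMT-N, less Klf4, at -0.91 (-1.40 to -0.43) in PyMT-M and -1.06 (-1.32 to -0.79) in PyMT-N, and less Nr2f2, at -1.22 (-1.57 to -0.88) in PyMT-M and -0.62 (-0.79 to -0.45) in PyMT-N. They also held less Klf2, at -0.69 (-0.90 to -0.47) in PyMT-M and -0.96 (-1.07 to -0.85) in PyMT-N.

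Limiting each set to cells that belonged to no other left few cells. Of the ratios given above whose interval had left out 0, most kept their direction where a ratio could still be formed, some with intervals that then held 0. Those that turned were Sox17 and Klf2 in the PyMT-N tip set and Fli1 in the PyMT-M cycling set. Ratios not given above turned as well, in the arterial, capillary, interferon and cycling sets, and are listed in the last section. Nr2f2 in the 29 and 25 cells of the venous set alone was at 1.41 and 1.96. Sox17 in the 27 and 13 cells of the arterial set alone was at 1.91 and 0.63, the latter with an interval of -0.29 to 1.41. In the 6 and 18 cells of the cycling set alone, Sox7 was at -1.14 and -2.59.

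**Figure D3:**
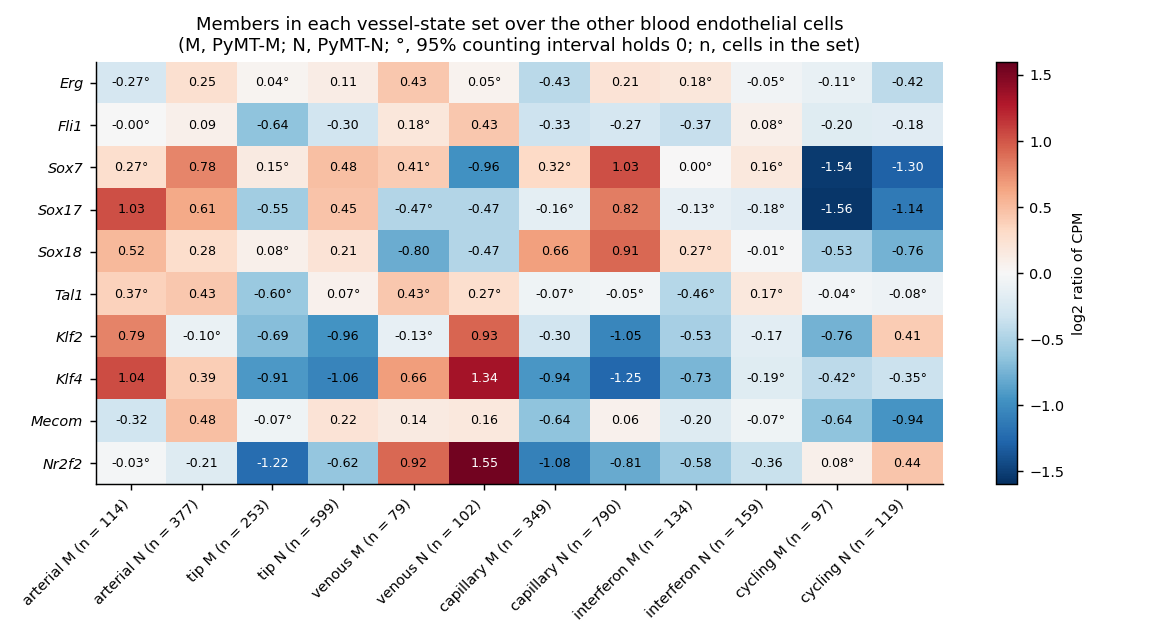
Heat map of the log2 ratio of CPM of each member (vertical axis) in a set of blood endothelial cells over the other blood endothelial cells of the same library (horizontal axis, M for PyMT-M and N for PyMT-N, n the cells in the set). Red is higher and blue lower in the set, and a ring marks a 95% counting interval that holds 0. In both libraries Fli1, Sox7, Sox17, Sox18 and Mecom lay below 0 in the cycling set, with no ring. Nr2f2 lay above 0 in the venous set of both libraries.

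The share of cells with a UMI followed depth, so shares were read after thinning each cell to 3000 UMIs, which left out 108 PyMT-M and 7 PyMT-N blood endothelial cells. At its own depth a blood endothelial cell held 4 members (median) in PyMT-M but 6 in PyMT-N, and after thinning a median of 3 in both. Mecom was then read in 76.2% of PyMT-M and 74.5% of PyMT-N cells, and Fli1 in 67.3% and 63.8%. Erg was read in 29.4% and 43.3% and Sox18 in 33.8% and 46.0%. The unthinned shares of Sox18 were 44.4% and 83.1%, and of Mecom 83.7% and 90.9%. Klf2 was read in 36.7% and 27.7% of thinned cells, against 47.6% and 47.9% unthinned. In thinned tumor-class cells Erg was read in 0% and 0.0303%, Fli1 in 0.143% and 0.242%, Sox18 in 0.0204% and 0.0908% and Mecom in 0% and 0.182%, where the exact interval of a 0 ends at 0.0752% of cells with a UMI. Klf2 was read in 42.8% and 15.0% of them, above its blood endothelial share in PyMT-M and below it in PyMT-N.

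**Figure D4:**
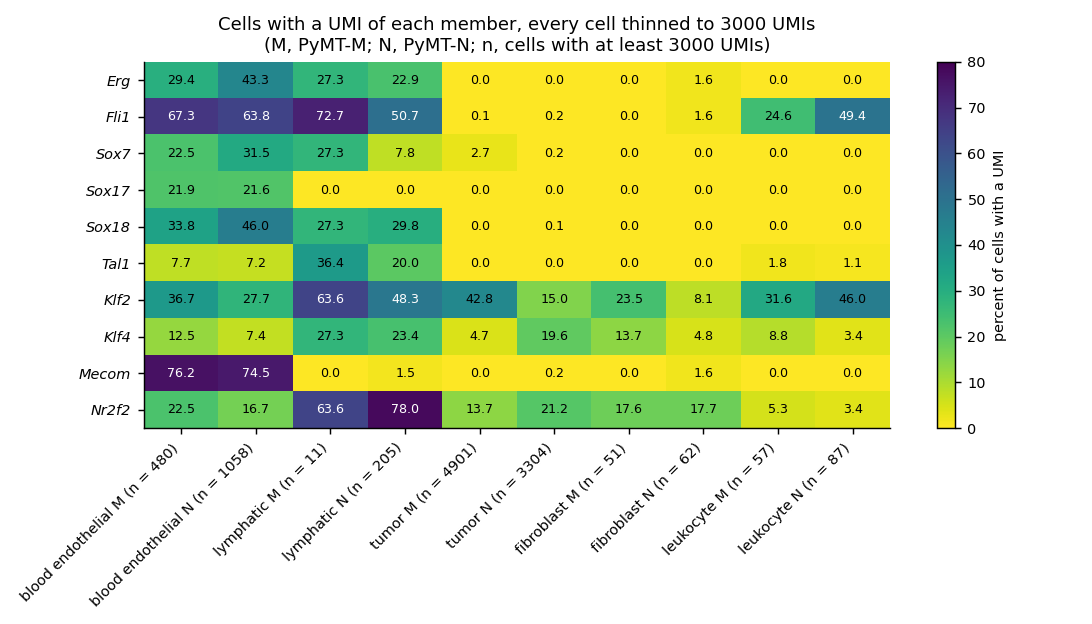
Percent of cells with a UMI of each member after thinning to 3000 UMIs per cell, drawn as a heat map with members on the vertical axis and cell class with library (M, PyMT-M; N, PyMT-N; n, cells) on the horizontal axis, darker for a larger share. Mecom and Fli1 were read in over 60% of blood endothelial cells of both libraries.

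Most pairs of members were read together about as often as their single shares would give. Of 45 pairs in thinned blood endothelial cells, the product of the shares lay inside the interval of the observed share for 44 in PyMT-M and 37 in PyMT-N. Klf2 with Klf4 was the pair above the product in both libraries, in 7.71% (5.49 to 10.5%) of PyMT-M cells against a product of 4.58% and in 4.73% (3.53 to 6.18%) of PyMT-N cells against 2.04%. Of the thinned cells with Klf4, 61.7% in PyMT-M and 64.1% in PyMT-N also held Klf2. As a description over 480 and 1058 cells of 1 library each, Spearman's rho of the thinned counts was 0.21 and 0.27. With the summed immediate early genes, rho for Klf4 was 0.08 and 0.09 in these cells, and -0.02 and 0.25 in tumor-class cells. In lymphatic cells it was 0.36 over 11 PyMT-M cells and 0.32 over 205 PyMT-N cells. In PyMT-N, Sox7 with Sox18, Erg with Mecom and Sox7 with Mecom were also above the product, and Sox7 with Klf2, Sox7 with Nr2f2, Sox18 with Klf2 and Klf2 with Mecom were below it. These calls depended on depth: with cells at their own depth, 11 pairs were above the product and 0 below it in PyMT-N, and 2 and 0 in PyMT-M. In the thinned PyMT-N cells, Sox7 with Nr2f2 was read in 3.31% (2.31 to 4.57%) of cells against a product of 5.27%. Fli1 with Mecom was read together in 55.2% (50.6 to 59.7%) of the thinned PyMT-M cells and 48.3% (45.2 to 51.4%) of the thinned PyMT-N cells.

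**Figure D5:**
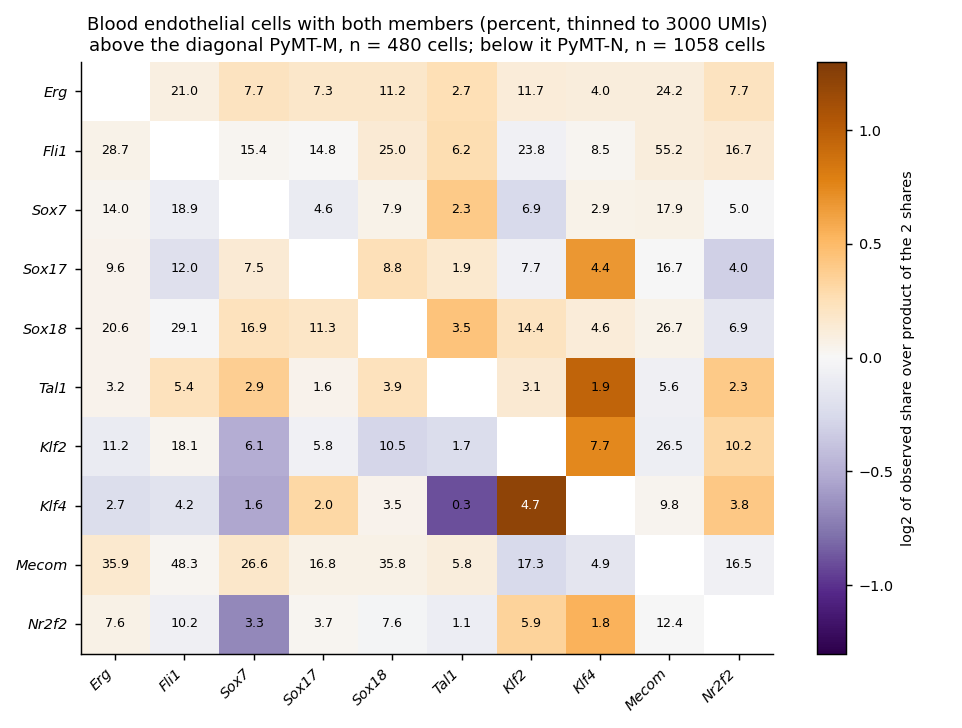
Members against members, with the percent of thinned blood endothelial cells holding both printed in each square, PyMT-M above the diagonal and PyMT-N below it. Color gives the log2 ratio of that share to the product of the single shares, orange above and purple below it. Klf2 with Klf4 stood above the product in both libraries.

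Over the 9 sums of a class in a library with at least 50 cells, and among 13502 genes, the genes nearest to each member by Pearson's r of log2(CPM + 5) are given as a description. These points share 2 libraries and their depth and span 5 cell classes, so genes confined to the same classes reach a high r. For Erg they were Clca2 (r = 0.998), Sox18 (r = 0.998), Podxl (r = 0.998), for Sox18 Bcl6b (r = 0.999), Erg (r = 0.998), Tie1 (r = 0.998) and for Fli1 Tspan13 (r = 0.991), Ptbp3 (r = 0.991), Gimap6 (r = 0.989). Erg and Sox18 were thus in each other's nearest 3. For Mecom they were Kcnq1 (r = 0.998), Gm32688 (r = 0.997), Gal (r = 0.996), for Sox17 Ct55 (r = 0.999), Gm57038 (r = 0.998), Asb4 (r = 0.997) and for Tal1 Tbc1d30 (r = 0.987), Sh3tc1 (r = 0.987), Stab1 (r = 0.986). Sox7 was nearest to Iqcg (r = 0.988), Gm13816 (r = 0.985), Gfod1 (r = 0.980) and Nr2f2 to Zfp760 (r = 0.970), Fbxl4 (r = 0.946), Cfap20dc (r = 0.944). The highest r was lowest for the KLF genes, with Tmpo (r = 0.951), Nol7 (r = 0.951), Trib1 (r = 0.948) for Klf2 and Tmcc2 (r = 0.949), Zscan21 (r = 0.934), Zmat2 (r = 0.917) for Klf4.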

How the data were processed

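Counts were used as the authors deposited them, 1 matrix of whole UMI counts per library, unnormalized. The submitters' processing notes name Cell Ranger 8.0.0 and mm39, and no source used here gives the annotation. Libraries held 141067264 (PyMT-M) and 116150425 (PyMT-N) UMIs. Counts were summed over the cells of a class and divided by their total (CPM) with Python 3.11.15 (scipy 1.17.1, numpy 2.4.6, pandas 2.3.3), and drawn with matplotlib 3.10.9. Poisson, Poisson-ratio and Clopper-Pearson intervals cover counting error only, and the code was tested on simulated data. Genes with at least 200 UMIs over both sums were compared at 2-fold. The leukocyte class had at least 5 UMIs of Ptprc, Tyrobp and Cd52 and none of Pecam1 and Flt1. No doublet caller was run, and leaving out cells above 2 times the median depth was 1 of the alternatives, as were other class limits, cell filters, totals and thinning. Leaving out barcodes of both libraries or tumor-class cells with Cdh5, and joining lymphatic cells, were added after the data were seen. Named were the 10 members, the 3 highest and 3 lowest tested genes of each list, of which the text shows a part (1 is not reported here), the genes that define classes and sets, and the 3 nearest genes per member. The members and lists were chosen with earlier results of these data known. Promoters came from RefSeq (GRCm38.p6).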

Additional observations from a re-analysis of the deposited data

Results flagged for a closer look

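The following members had log2 ratios of opposite sign in PyMT-M and PyMT-N, each with a counting interval that left out 0. With 1 library per line the difference between libraries was not tested, and line and library cannot be told apart. Klf4 in blood endothelial over tumor-class cells was at 1.52 in PyMT-M and -1.59 in PyMT-N. In the capillary set over other blood endothelial cells, Erg was at -0.43 for PyMT-M but 0.21 for PyMT-N, and Mecom at -0.64 (PyMT-M) and 0.065 (PyMT-N). In the tip set Sox17 was at -0.55 in PyMT-M and 0.45 in PyMT-N. In the cycling set Klf2 was at -0.76 in PyMT-M and 0.41 in PyMT-N. In the arterial set Mecom was at -0.32 in PyMT-M and 0.48 in PyMT-N. With cells in 1 set alone the signs were no longer opposite for Sox17 in the tip set (-0.49 in PyMT-N), Klf2 in the cycling set (0.32 in PyMT-M), and Mecom in the arterial (0.57 in PyMT-M) and capillary (-0.057 in PyMT-N) sets.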

How the results depend on the processing

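Of 150 recomputed ratios of PyMT-M over PyMT-N in blood endothelial cells, 132 stayed inside the counting interval of the reported value, and 2 turned, both of Nr2f2, which went to -0.00045 without cells holding markers of other types and to -0.46 with blood endothelial and lymphatic cells together. In the latter setting, added after the data were seen, 3 members had an interval above 0. The 55 planned recounts of members stayed within 1.5 times. Erg ranged over -0.80 to -0.42, Sox7 over -0.75 to -0.51, Sox18 over -0.81 to -0.62, Fli1 over 0.16 to 0.43, Klf2 over 0.19 to 0.55 and Mecom over 0.09 to 0.45. With cells in 1 set alone, PyMT-M values turned to 0.57 for Mecom in the arterial set, 0.080 for Fli1 and 0.31 for Klf2 in the capillary set, 0.40 for Fli1 and 1.09 for Nr2f2 in the interferon set, and 0.28 for Fli1 and 0.32 for Klf2 in the cycling set. PyMT-N values turned to -0.46 for Erg and 1.25 for Nr2f2 in the arterial set, -0.49 for Sox17 and 0.079 for Klf2 in the tip set, -0.057 for Mecom in the capillary set and 0.66 for Klf2 in the interferon set. With the set minimum doubled, Mecom in the PyMT-M venous set was at -0.037 and Erg in the PyMT-N arterial set at -0.030. The causes were not tested. No paired analysis was possible because each line has 1 library and the result comes from no test, and no replicate could be left out. Thinning moved all 90 co-detection shares beyond their intervals. Tal1 rests on few UMIs and the PyMT-M lymphatic values on 20 cells.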
